A study of Mus musculus with 7 samples.

Results

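The clustered histone genes encode the linker histones H1 and the core histones H2A, H2B, H3 and H4 that package newly copied DNA. They were followed in polyadenylated RNA from the whole pancreas of mouse embryos at E15.5. Genes were taken by name, from the histone clusters whose symbols start with Hist1h, Hist2h, Hist3h or Hist4h, and were selected on having 10 or more counts summed over 7 libraries. This gave 56 genes out of 27138 features in the table: 5 for H1, 13 for H2A, 17 for H2B, 10 for H3 and 11 for H4. The reference annotation names 70 such genes, of which 62 have a row. At the threshold, Hist1h2ah was just inside with 10 counts, and the testis-type linker histone gene Hist1h1t was just outside with 8. The other 5 genes below the threshold had 2 to 7 counts. On the annotated mouse genome, 48 of the 56 lie on chromosome 13, 4 on chromosome 3, 3 on chromosome 11 and 1 on chromosome 6.

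The 4 WT libraries came from embryos with floxed alleles of 2610035D17Rik (mLINC00673fl/fl), which is a long non-coding RNA gene orthologous to human LINC00673, with no Cre named. The 3 cKO libraries came from embryos with the same floxed alleles and Pdx1Cre, in which the promoter of the pancreatic factor Pdx1 drives Cre. Each library was made from an independent animal, and strain and sex are not given in the labels. Only Pdx1-expressing cells and their descendants recombine, whereas the whole pancreas also holds mesenchyme, vessels, blood and nerves. In such bulk samples, fewer cells of a type and less RNA per cell cannot be told apart. WT embryos were not reported to carry Cre, so an effect of Cre itself and of the deletion cannot be told apart.

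Most metazoan mRNAs end in a poly(A) tail, but mRNAs of the replication-dependent histone genes normally do not. They end a few bases after a short stem-loop, which is bound by the stem-loop binding protein SLBP and cut with the help of U7 snRNA. The RNA accumulates in S phase and is degraded when DNA synthesis stops. Some of these genes also give polyadenylated transcripts that read past the stem-loop. Here RNA was captured on poly-T beads, so what was counted is the part of histone RNA that these beads retained, not the whole histone RNA of the cells.

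The stem-loop is shown because it marks where a tailless histone mRNA would end. A match of 16 bases was sought in the annotated transcripts, with a stem of 6 pairs that begins GG and ends CC, a loop of 4 bases, and at most 1 unpaired position. Only some bases were allowed in the loop and in the later part of the stem's 5′ arm. The kinds found were thus partly fixed by the search. A gene without a match lacks this pattern in its annotated transcripts, and other forms of stem-loop were not sought. Of the 56 genes, 39 had a match, in 8 kinds. Capitals mark the stem-loop and lower case the 5 bases on either side, read 5′ to 3′ on the RNA's strand in GENCODE M21 transcripts (GRCm38).
Hist1h1c: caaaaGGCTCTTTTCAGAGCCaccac
Hist3h2ba: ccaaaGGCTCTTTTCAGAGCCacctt
Hist1h3c: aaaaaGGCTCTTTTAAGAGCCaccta
Hist1h3g: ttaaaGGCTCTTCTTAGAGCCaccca
Hist2h2ac: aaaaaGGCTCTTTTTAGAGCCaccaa
Hist1h4h: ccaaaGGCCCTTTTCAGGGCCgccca
Hist1h4i: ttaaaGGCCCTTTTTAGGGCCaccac
Hist1h4j: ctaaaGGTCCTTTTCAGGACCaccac
The form in Hist1h1c and Hist3h2ba was the most common and occurred in 22 genes, 3 of H1, 7 of H2A, 8 of H2B and 4 of H3. The form in Hist1h3c occurred in 5 genes of H2B and H3, the one in Hist1h4h in 6 genes of H4 and the one in Hist1h4i in 2. Each remaining kind occurred in 1 gene. No kind occurred both in H4 and in another type: the H4 matches fell into 4 kinds and those of the other types into the other 4.

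Promoters were examined for what the genes share besides the stem-loop. RefSeq (GRCm38.p6) gave the sequence from 250 bases before to 50 after the start for 49 of the 56 genes, Hist1h2bc and Hist2h2be not among them. On both strands, TATAAA, the core of the TATA box, was found in 59.2% of these promoters and in 13.6% of the 32851 promoters in the table. CCAAT, the core of the CCAAT box, was found in 85.7% against 37.4%, and ATGCAAAT, the octamer bound by POU factors, in 20.4% against 1.74%. CCAAT was present in every matched promoter of H1 (5), H2A (12), H2B (14) and H3 (8), and in 3 of 10 H4 promoters (30.0%). The octamer was found only in H2A (6 of 12, 50%) and H2B (4 of 14, 28.6%). Several H2A and H2B promoters overlap on opposite strands, such as those of Hist1h2ad and Hist1h2bf, and those of Hist1h2bq and Hist1h2br have the same sequence. A site found on either strand can then count for both genes, so these shares are not from independent promoters. None of the 3 motifs contains another. For the highest H1, H2B and H4 gene by CPM with a sequence in that table, the 100 bases before the start are given with these motifs in capitals.
Hist1h1c, chr13:23738707-23738806, plus strand: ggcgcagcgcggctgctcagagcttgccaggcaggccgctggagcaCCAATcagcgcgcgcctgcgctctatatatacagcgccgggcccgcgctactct
Hist3h2ba, chr11:58948811-58948910, plus strand: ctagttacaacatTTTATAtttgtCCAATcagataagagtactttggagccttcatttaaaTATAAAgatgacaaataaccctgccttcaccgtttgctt
Hist1h4i, chr13:22041363-22041462, minus strand: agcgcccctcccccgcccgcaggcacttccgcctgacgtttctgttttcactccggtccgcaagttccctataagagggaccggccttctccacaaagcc
The CCAAT of Hist1h1c begins 54 bases before the start and that of Hist3h2ba 76 bases before it. Hist1h4i had none of these letters in the window shown.

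Reads from these genes were rare and very uneven. The 56 genes held 23344 counts in all, between 0.0173% and 0.0225% of each library's counts. Hist1h1c, which encodes the linker histone H1.2, held 48.2% of them with 11249 counts. Hist1h2bc, which encodes a core H2B, held 19.9% with 4647 counts, so together these 2 genes held 68.1%. With Hist3h2ba, Hist2h2be (both H2B) and Hist1h4i (H4), the highest 5 genes reached 81.8%. A mean of at least 1 CPM (counts scaled to a common library total after TMM scaling) was reached by 17 genes, and 39 were below it.

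Per kilobase of annotated exon, the order of the highest genes remained steep. Hist1h1c had 60.9 CPM per kb (50.1 to 69.3 over the libraries) and Hist1h2bc 33.8 CPM per kb (24.8 to 44.3), and these ranges do not overlap. Hist3h2ba followed with 17.8 CPM per kb, Hist1h4i with 9.35, Hist1h2bg with 4.05 and Hist2h2be with 3.50. The other 50 genes were between 0.0470 and 2.60 CPM per kb. Replacement and linker histone genes that lie outside the clusters stood above most of them. H3f3b, which encodes H3.3, had 290 CPM per kb, the linker histone gene H1f0 273, and H2afz, which encodes H2A.Z, 231. The centromeric Cenpa had 16.2, the lowest of the 11 replacement and linker genes listed.

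The annotated 3′ ends were compared with these levels. Transcripts of 24 genes ran at least 50 bases past the stem-loop, 15 ended sooner after it, 4 had 100 or more bases after the stop codon with no match, and the annotation of 13 ended too soon to tell. The genes that ran on held 69.4% of the histone counts, those long without a match 25.1%, those that ended soon 3.12% and the remainder 2.35%. Hist1h1c has 840 bases after the stem-loop, Hist1h4i 330 and Hist3h2ba 169. Hist1h2bc, a transcript of 2 exons, and Hist2h2be have 742 and 2192 bases after the stop codon and no match. Each of the 6 genes above 3 CPM per kb thus either ran on or was long without a match, and the highest of those that ended soon, Hist1h4h, had 2.24 CPM per kb. Per kb, the typical gene did not follow this split: the median was 0.634 CPM per kb in the genes that ran on and 0.779 in those that ended soon. In CPM it did, with medians of 1.10 and 0.389 CPM, and 14 of 24 against 1 of 15 genes above 1 CPM. The median exon lengths were 1079 and 480 bases, and these lengths include the ends that define the groups. The answer for the typical gene thus depends on the measure. Annotated ends rest in part on polyadenylated cDNA, and the authors' build differs from this annotation, so the ends used in these embryos were not measured.

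**Figure D1:**
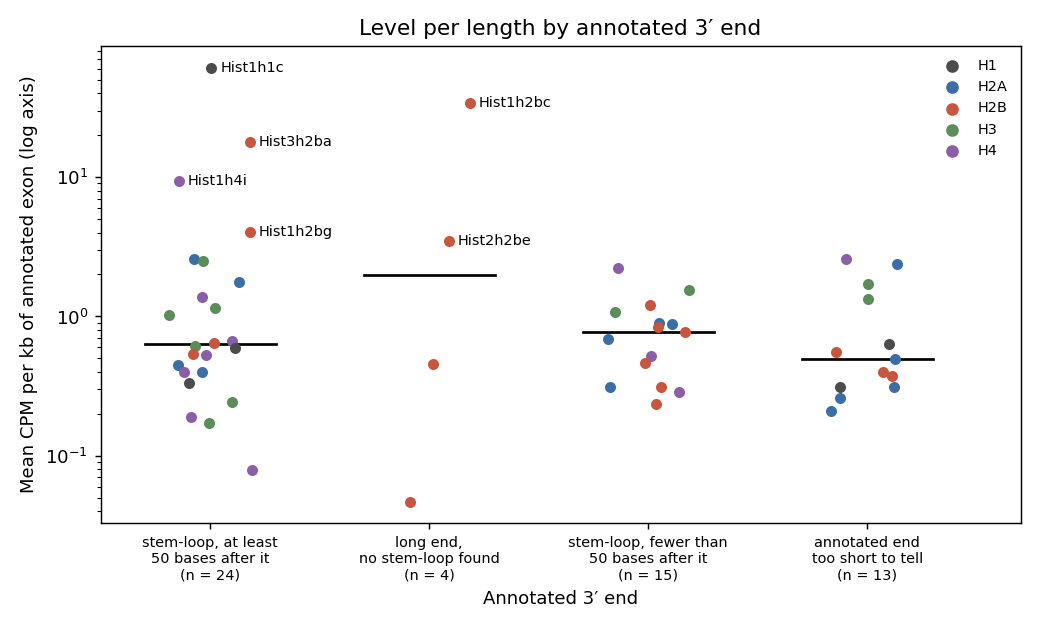
Mean CPM per kb of annotated exon (log axis, mean over 7 libraries) for each of the 56 genes, grouped by annotated 3′ end and coloured by histone type, with black bars at the group medians. The 6 labelled genes above 3 CPM per kb all have a long annotated end, whereas the medians per kb of the stem-loop groups are close, 0.634 and 0.779. Without division by length, these medians are 1.10 and 0.389 CPM.

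Sequence similarity limits how far single genes can be read. More than 50% of the 100-base windows of 18 genes also occur in another annotated transcript, and the median gene shares 31.5% of its windows. Hist1h1c shares 5.07%, Hist3h2ba 4.85%, Hist1h4i 15.1% and Hist1h2bc 25.4%, and Hist2h2be shares none. Hist1h2bg, also above 3 CPM per kb, shares 44.9%, mainly with the higher Hist1h2bc. Neither the labels nor the file headers say how reads that match several places were assigned. Libraries were not stranded, so reads of the 15 genes that overlap another annotated gene cannot be divided by strand. All 13 H2A genes are among them, mostly with small miRNA entries that have no row in the table.

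The libraries held 14883918 to 17767373 counts. The pancreas markers Pdx1, Ptf1a, Cpa1, Ins2, Gcg, Neurog3, Krt19 and Sox9 were all measured and summed to 5553 to 10498 CPM. The targeted gene 2610035D17Rik was at 9.07, 8.74, 7.92 and 8.82 CPM in the WT libraries and at 2.01, 3.37 and 2.26 CPM in the cKO libraries, which the fit put at -1.76 on the log2 scale (SE 0.215). Adjusted over all features by Benjamini and Hochberg's method, its p was 0.0902 in edgeR and 1.43e-09 in DESeq2. Liver markers summed to 304 to 1236 CPM in WT and 375 to 1913 CPM in cKO, with WT replicate 4 and cKO replicate 1 highest.

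For cKO against WT, edgeR could test 26 of the 56 genes in its fit over 16910 features. The remaining 30 held 10 to 67 counts each, 937 in all. At an adjusted p under 0.05, 0 of the 26 were higher (0.00591% of all features) and 0 were lower (0% of all features). At an unadjusted p under 0.05, 2 of 26 were higher, against 0.668% of all features, and 2 of 26 were lower, against 0.716%. DESeq2, which kept low genes, called 0 of 56 higher (0.00739% of its features) and 1 of 56 lower (0.0369%), the pseudogene Hist1h2al. That pseudogene passed the count threshold only through the WT group, so no difference is read from the call. CPM of the groups did not overlap in 2 of 26 genes that were higher in cKO (1.31% of all features) and 2 of 26 that were lower (1.42%). The genes were Hist1h2bc and Hist2h2be above, and Hist1h3i and Hist1h2al below. The median log2 fold change over the 26 was 0.087, with 15 above 0 and 11 below, beside -0.013 over all features.

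**Figure D2:**
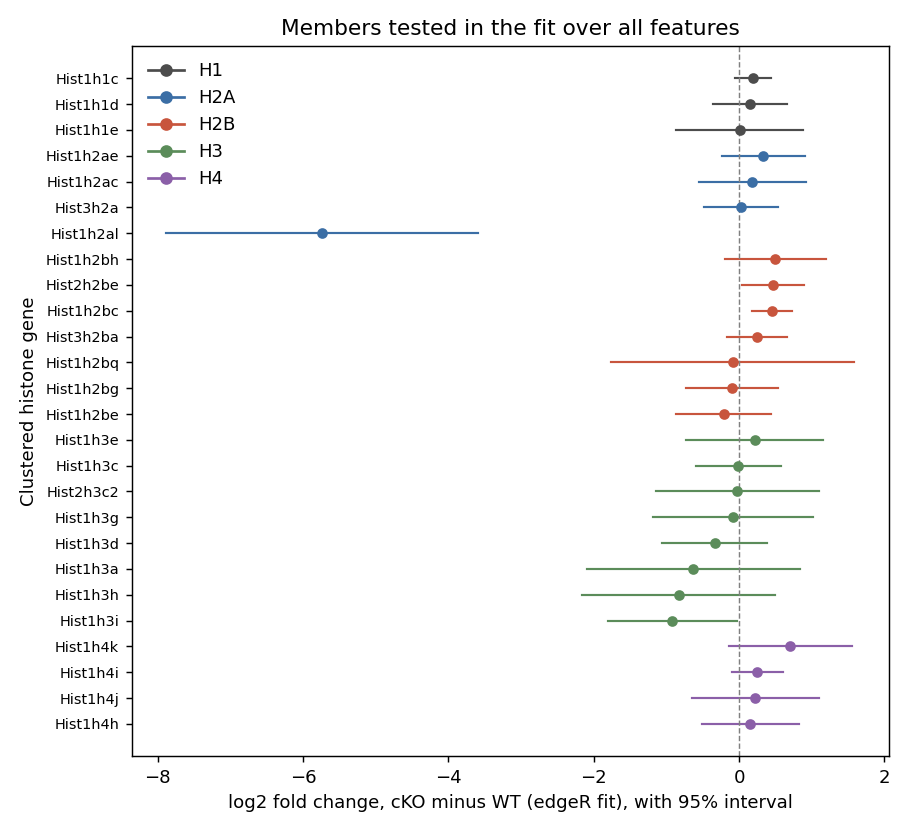
Fitted log2 fold change (cKO minus WT, edgeR) of the 26 tested genes with 95% intervals, coloured by histone type, with 0 as a dashed line. The intervals of 22 genes include 0, and Hist1h2al lies far to the left with the widest interval.

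Among the 5 clustered H1 genes, most counts were from Hist1h1c. Hist1h1c had 78.1, 94.6, 81.0 and 104 CPM in the WT libraries and 99.5, 99.7 and 108 CPM in the cKO libraries. The cKO libraries sat near the upper end of the WT range and WT replicate 4 lay among them, so the groups overlapped. The means were 89.5 ± 12.2 CPM (SD, n = 4) and 102 ± 4.96 CPM (SD, n = 3), and the edgeR fit put the log2 fold change at 0.19 (SE 0.110, 95% interval -0.05 to 0.44, edgeR adjusted p = 0.9999). Its WT coefficient of variation was 13.7%, where counting error alone gives 2.60%. Hist1h1d, which encodes H1.3, had 2.36 ± 0.397 CPM in WT and 2.62 ± 0.0698 in cKO. Hist1h1e, which encodes H1.4, had 1.14 ± 0.441 and 1.14 ± 0.324 CPM. It overlaps Hist1h2be, a gene on the same strand with 282 counts, and shares 24.7% of its windows, mainly with that gene. All 3 fitted changes were above 0, but that of Hist1h1e was 0.01 and turned to -0.01 with library totals in place of TMM. It also turned in 3 of the fits without single libraries, to -0.21 without cKO replicate 1. Hist1h1b (H1.5) and Hist1h1a (H1.1) had 0.468 and 0.233 CPM over all libraries and were not tested.

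The 2 genes with a mean of at least 1 CPM whose groups did not overlap both encode H2B. Hist1h2bc had 35.6, 33.9, 28.7 and 36.8 CPM in the WT libraries and 39.8, 51.2 and 47.6 CPM in the cKO libraries. Every cKO library was above every WT library, with WT replicate 3 lowest and cKO replicate 2 highest. The means were 33.7 ± 3.57 CPM (SD, n = 4) and 46.2 ± 5.81 CPM (SD, n = 3). The edgeR fit put the log2 fold change at 0.45 (SE 0.119, 95% interval 0.18 to 0.72). Its unadjusted p was 0.00416 in edgeR's quasi-likelihood test and its adjusted p 0.9999, so it did not pass over all features. The exact two-sided permutation test over 35 divisions of the libraries gave 0.0286, the smallest it can give. Groups that do not overlap leave this test only 0.0286 or 0.0571, so it adds no support beyond the separation itself.

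Hist2h2be had 8.42, 8.68, 5.49 and 8.96 CPM in the WT libraries and 9.98, 11.3 and 11.4 CPM in the cKO libraries. The groups again did not overlap, and WT replicate 3 stood below the other WT libraries. The log2 fold change was 0.46 (SE 0.187, 95% interval 0.04 to 0.89, edgeR adjusted p = 0.9999). The exact permutation p of 0.0571 follows from the separation and adds no support to it. Hist3h2ba had 10.6, 9.58, 9.02 and 11.2 CPM in the WT libraries and 15.1, 9.11 and 11.7 CPM in the cKO libraries. Its groups overlapped, with cKO replicate 1 above all others and cKO replicate 2 next to the lowest WT library. Of the other tested H2B genes, Hist1h2bh had 0.924 ± 0.241 CPM in WT and 1.31 ± 0.198 in cKO, and Hist1h2bg 2.58 ± 0.815 and 2.40 ± 0.121. In all, 4 of 7 tested H2B genes were above 0 and 3 below, with a median of 0.25, and Hist1h2bg turned from -0.10 to 0.12 without WT replicate 4.

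**Figure D3:**
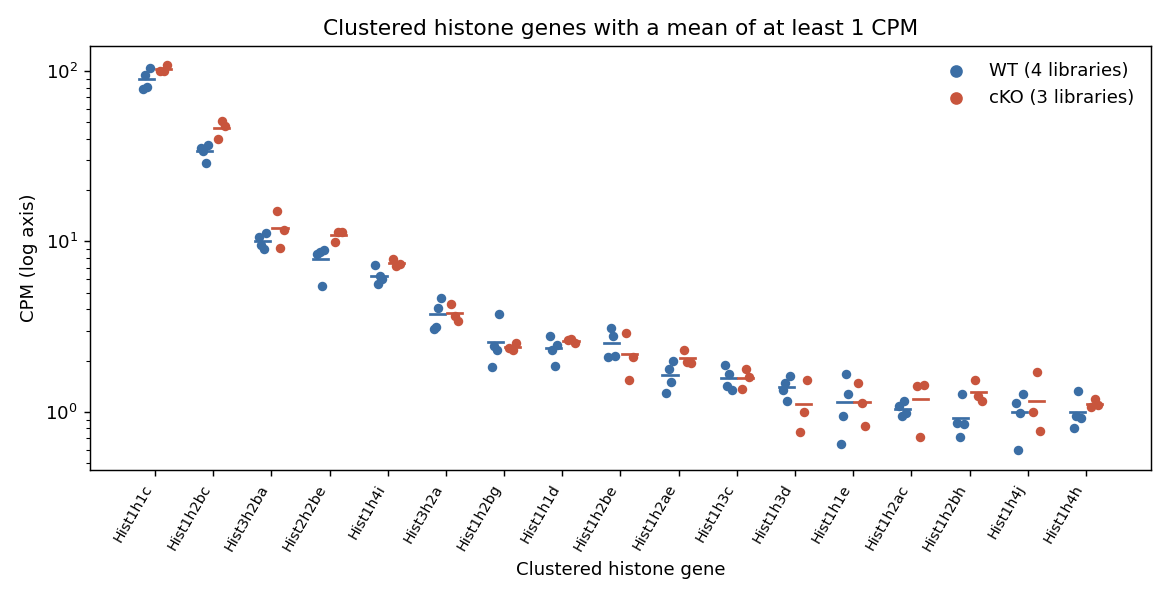
CPM in each library (points, log axis) of the 17 genes with a mean of at least 1 CPM, with WT on the left of each pair, cKO on the right and short lines at the group means. Hist1h1c and Hist1h2bc stand above all others, and among the highest 5 genes only Hist1h2bc and Hist2h2be have groups that do not overlap.

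H2A reads were few. Hist3h2a had 3.73 ± 0.758 CPM in WT and 3.80 ± 0.459 in cKO, and it overlaps Trim17, a ubiquitin ligase gene with 49 counts in the table. Hist1h2ae had 1.64 ± 0.301 and 2.06 ± 0.209 CPM, and Hist1h2ac 1.04 ± 0.0922 and 1.19 ± 0.413 CPM. The groups overlapped in each of these 3 genes, with log2 fold changes of 0.03, 0.33 and 0.18 and edgeR adjusted p = 0.9999 for each. That of Hist3h2a turned in 3 of the fits without single libraries and was -0.07 without cKO replicate 1.

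Hist1h2al, annotated as a processed pseudogene of H2A, had 12, 17, 48 and 17 counts in WT and 0, 0 and 1 in cKO. Every WT library held it, with WT replicate 3 above the others, and the cKO libraries together held 1 count. The ratio of WT to cKO was 73.1, with an exact 95% counting interval of 12.8 to 2919 on counts pooled over libraries. Its WT coefficient of variation was 66.7%, where counting error alone gives 20.6%. Its adjusted p was 0.406 in edgeR and 0.0145 in DESeq2. Hist1h2al passed the count threshold and the filter on low counts only through the WT group, so no difference is read from these values. This pseudogene shares 19.2% of its windows with other transcripts and overlaps a small miRNA entry. Hist2h2ac, a coding H2A gene that edgeR did not test, went the other way with 0, 0, 2 and 0 counts in WT and 9, 9 and 5 in cKO. That ratio of cKO to WT was 14.8, with a counting interval of 3.65 to 129 on counts pooled over libraries, and its DESeq2 adjusted p was 0.9999. No difference is read from this interval, because Hist2h2ac passed the count threshold only through the cKO group and was picked after its values were seen.

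Hist2h2ac was named after its values were seen, as were 3 further untested genes whose groups did not overlap. Hist1h2bb had 5, 5, 3 and 5 counts in WT and 12, 8 and 9 in cKO. Hist1h2ao had 3, 2, 2 and 1 against 3, 3 and 4 counts, and Hist1h4n 2, 1, 0 and 0 against 5, 4 and 3 counts. Groups thus did not overlap upward in 4 of 30 untested genes (3.08% of all features with 10 or more counts and no edgeR test) and downward in 0 of 30 (2.25%). Nothing is read from these counts, because Hist2h2ac and Hist1h4n reached 10 counts only through the cKO group in which they are high. Intervals on such counts take in counting error alone, because PCR copies of a molecule are not independent of it.

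H3 genes were low throughout, none above 1.58 CPM on average. Hist1h3c had 1.58 ± 0.248 CPM in WT and 1.58 ± 0.209 in cKO, and Hist1h3d 1.40 ± 0.199 and 1.11 ± 0.398 CPM. Hist1h3i had 0.809, 0.833, 1.04 and 0.847 CPM in the WT libraries and 0.413, 0.710 and 0.276 CPM in the cKO libraries. Its groups did not overlap, and cKO replicate 2 was nearest to WT. The log2 fold change was -0.92 (SE 0.394, 95% interval -1.81 to -0.02, edgeR adjusted p = 0.9999), from 5 to 18 counts per library. Here too the exact permutation p of 0.0286 follows from the separation and adds no support to it. Hist1h3i shares 68.6% of its windows, most with Hist1h3h, which had 0.681 ± 0.339 and 0.378 ± 0.246 CPM. Of 8 tested H3 genes 7 were below 0 and only Hist1h3e above, with a median of -0.21, and 7 of the 8 intervals include 0. Directions of this kind were unsteady for Hist1h3g and Hist1h3c, each of which turned in 3 of the fits without single libraries. Hist1h3g was at 0.30 without WT replicate 1, and Hist1h3c at 0.09 without cKO replicate 1.

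Of the 11 H4 genes, 4 could be tested, and the groups overlapped in each of these. Hist1h4i had 7.29, 5.59, 6.24 and 6.0 CPM in the WT libraries and 7.91, 7.22 and 7.34 CPM in the cKO libraries. WT replicate 1 lay within the cKO range and the other WT libraries below it. The log2 fold change was 0.25 (SE 0.156, 95% interval -0.10 to 0.61, edgeR adjusted p = 0.9999, exact permutation p = 0.0857). Hist1h4k had 0.632 ± 0.165 CPM in WT and 1.05 ± 0.391 in cKO, Hist1h4j 0.995 ± 0.292 and 1.16 ± 0.491, and Hist1h4h 1.00 ± 0.227 and 1.12 ± 0.0612. All 4 tested H4 genes were above 0, with a median of 0.24, under TMM, DESeq2 size factors and library totals alike, and each interval includes 0. Hist1h4j was at -0.17 without cKO replicate 2.

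Sums over genes do not depend on how reads were divided among near-identical members of the same sum. They do depend on how reads were divided with genes outside it. Hist2h3c2 shares 61.6% of its windows, mainly with Gm20634, and Hist3h2a 29.8%, mainly with Trim17. Reads left out for matching several places would be missing from the sums too. The 56 genes summed to 173, 187, 169 and 204 CPM in WT and to 209, 215 and 221 CPM in cKO. The groups did not overlap, and WT replicate 4 was the WT library nearest to cKO. The means were 183 ± 15.9 CPM (SD, n = 4) and 215 ± 5.79 CPM (SD, n = 3), a ratio of 1.17, which is given without a test because the genes were chosen with earlier results known. Hist1h2bc held 36.8 of the 204 CPM in WT replicate 4 and 51.2 of the 215 CPM in cKO replicate 2. Without that gene this pair of libraries would be in the other order, so the separation of the whole sum rests on it. The highest 5 genes, a set picked after the levels were seen, had a ratio of 1.21, while the other 51 summed to 35.9 ± 2.37 CPM in WT and to 35.8 ± 1.19 in cKO.

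By type, H2B was the only sum whose groups did not overlap. It was 61.9, 62.5, 52.8 and 67.3 CPM in WT and 75.6, 80.1 and 79.7 CPM in cKO, a ratio of 1.28. Hist1h2bc held 36.8 of the 67.3 CPM in WT replicate 4 and 51.2 of the 80.1 CPM in cKO replicate 2. Without that gene this pair of libraries would be in the other order, so the separation of H2B rests on Hist1h2bc. H1 summed to 93.8 ± 12.4 CPM in WT and 107 ± 4.72 in cKO, and H4 to 10.8 ± 1.23 and 13.2 ± 1.41 CPM. H2A summed to 9.73 ± 1.69 and 9.50 ± 0.774 CPM, and H3 to 7.97 ± 0.431 and 6.79 ± 1.11 CPM. By annotated end, the 4 genes long without a stem-loop match, which include Hist1h2bc and Hist2h2be, had 42.7 ± 5.32 CPM in WT and 58.0 ± 5.66 in cKO without overlap. The 24 that run past it had 130 ± 13.6 and 147 ± 5.32 CPM, and the 15 that end soon after it 5.80 ± 0.727 and 6.49 ± 0.808 CPM, both with overlap. The 13 whose annotated end is too short to tell, which include Hist1h2al, were lower on average in cKO, with 5.42 ± 1.70 CPM in WT and 3.56 ± 1.10 in cKO, also with overlap.

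**Figure D4:**
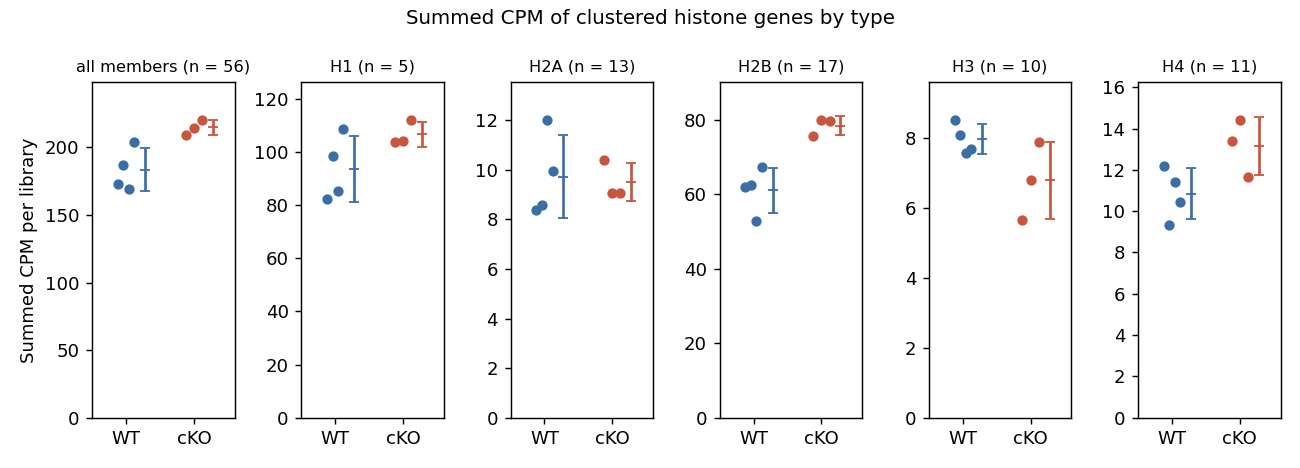
Summed CPM per library (points) of all 56 genes and of each histone type, on axes that start at 0 and differ between panels, with mean and SD beside the points for 4 WT and 3 cKO libraries. WT and cKO are separate for all genes together and for H2B, and overlap for H1, H2A, H3 and H4.

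Other cells in the dissected tissue differed between the same libraries. Erythroid markers, 9 of 10 tested, summed to 978, 1860, 1217 and 2336 CPM in WT and 2830, 1333 and 1830 CPM in cKO. Within WT, the libraries with the higher erythroid sums, replicates 2 and 4, also had the higher histone sums, whereas cKO replicate 1 had the highest erythroid and the lowest histone sum of its group. Macrophage markers summed to 242 to 385 CPM in WT and 272 to 345 CPM in cKO, mesenchymal ones to 9660 to 11805 and 9641 to 10583, endothelial ones to 473 to 547 and 463 to 530, and neuronal and Schwann cell ones to 84.0 to 697 and 108 to 884. Without WT replicate 4 and cKO replicate 1, highest in liver and erythroid genes, the histone ratio was 1.23 in place of 1.17 and the H2B ratio 1.35 in place of 1.28, a setting added for sums after the data were seen. The part of red cell, macrophage and nerve RNA in these sums was not tested.

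No gene listed as acting on histone genes or their RNA passed the test. In each of 7 lists, 0 genes were higher and 0 lower at an adjusted p under 0.05 in edgeR, against 0.00591% and 0% of all features. At an unadjusted p under 0.05 the count was again 0 in each list, against 0.668% higher and 0.716% lower of all features. Counts of 0 are near these shares and are not read as a result about the listed genes. For the directions given next, 46.0% of all tested features were above 0. Of 17 genes for stem-loop binding and 3′ end processing, 8 were above 0 and 9 below, with a median of -0.002. Slbp, which encodes the stem-loop binding protein and was named after its values were seen, averaged 77.8 ± 5.73 CPM in WT (SD, n = 4) and 77.9 ± 4.86 in cKO (SD, n = 3). Cpsf1 and Cstf2, which encode cleavage factor subunits, had log2 fold changes of -0.12 and -0.14.

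Of 10 genes for histone gene transcription 1 was above 0 and 9 below, with a median of -0.027. Casp8ap2, a histone locus body protein, and Cdk2, the kinase that acts with cyclin E, had log2 fold changes of -0.10 and -0.04, the first of them 0.09 without cKO replicate 1. Of 10 genes for histone mRNA decay 2 were above 0, with a median of -0.054, and the exonuclease genes Exosc10 and Dis3l2 had -0.09 and -0.12. Of 12 genes for polyadenylation and nuclear tail control 2 were above 0, with a median of -0.053, and the cleavage factor genes Cstf1 and Pcf11 had -0.11 and -0.13.

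Of 17 histone chaperone and chromatin assembly genes 6 were above 0, with a median of -0.030. Chaf1a, a subunit of the chromatin assembly factor CAF-1, and Supt16, a subunit of FACT, both had -0.14. Of 22 S phase genes 5 were above 0 and 17 below, with a median of -0.069. Cdc6, which helps load the replicative helicase, averaged 44.4 ± 1.65 CPM in WT (SD, n = 4) and 38.9 ± 4.31 in cKO (SD, n = 3), and the helicase subunit gene Mcm2 184 ± 15.6 CPM in WT (SD, n = 4) and 168 ± 14.1 in cKO (SD, n = 3), with log2 fold changes of -0.19 and -0.13. Summed over the 22 genes, S phase RNA was 2521 to 2978 CPM in WT and 2417 to 2696 CPM in cKO. Of 11 replacement and linker histone genes outside the clusters 10 were above 0, with a median of 0.049, and H2afv and H2afj, which encode H2A variants, had 0.10 and 0.18.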

How the data were processed

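Polyadenylated RNA was prepared with poly-T beads, random hexamers and a NEBNext Ultra kit without a strand step, per the labels' protocols. The authors deposited whole-number read counts per feature, not normalized. Per the submitters' processing notes the tools were HISAT2, StringTie and featureCounts on build mm39, without role or version. Genes and lists were chosen with earlier results of these data known. Named genes are the 4 highest of each type, those called, those with the smallest p in each direction or with separated groups, and 2 per list.

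Counts were fitted with edgeR 4.0.16 in R 4.3.3 (filterByExpr, TMM, robust glmQLFit, glmQLFTest, group alone, Benjamini-Hochberg over all features), with DESeq2 1.42.0 as an alternative, and checked on simulated data. CPM uses TMM-scaled totals. Exon lengths, transcripts and names come from GENCODE M21 on GRCm38, another build, so no coordinates from it are given. Promoter positions are those of RefSeq on GRCm38.p6. Counting intervals cover counting error only. No pair of libraries agreed within sampling noise. One WT column, replicate 4, carries another number in its heading than the rest, whose meaning no label gives. Alternatives covered scaling, filters, the estimator and each library.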

Additional observations from a re-analysis of the deposited data

Results flagged for a closer look

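In WT, Hist2h2be was at 5.49 CPM in replicate 3 and between 8.42 and 8.96 CPM in the other 3 libraries, a gap that made replicate 3 stand apart. Hist1h3i was at 1.04 CPM in WT replicate 3 and between 0.809 and 0.847 CPM in the others. These were 2 of 30 sets of WT values examined, and chance flags about 1 in 20. Without WT replicate 3 the log2 fold change of Hist2h2be was 0.32.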

How the results depend on the processing

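Under the alternatives, 317 of 338 values of the 23 named and tested histone genes kept their direction and 21 turned, and the only ones past the threshold were those of Hist1h2al with DESeq2 (log2 fold change -6.09) and with a replicate block (-5.87). edgeR called 1 feature over the whole table. It called 0 once scaling was by DESeq2 size factors or library totals, once features needed a mean of 1 CPM, or once estimation was not robust, 4 with no filter on low counts, and 0 to 3 without single libraries. DESeq2 called 12 features, 1 of them a clustered histone gene. The histone median was 0.18 with the filter at 1 CPM, which tests fewer genes, and its other values stayed within the spread of 0.081 between libraries. The targeted gene passed the threshold with no filter (-1.76), with DESeq2 (-1.76) and with the block (-1.78). The summed log2 ratio of 0.23 ranged from 0.19 to 0.28 without single libraries.

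Without the libraries highest in liver genes, Hist1h1e was at -0.16, Hist1h2bg at 0.14, Hist1h3c at 0.018, Hist1h3g at 0.18, Slbp at -0.038 and Casp8ap2 at 0.038. With library totals, Hist1h1e was at -0.0060 and Slbp at -0.014, and Slbp was at -0.0043 with no filter and -0.00078 with DESeq2. Without single libraries the log2 fold change ran from -0.21 to 0.27 for Hist1h1e, -0.066 to 0.14 for Hist3h2a, -0.23 to 0.12 for Hist1h2bg, -0.11 to 0.091 for Hist1h3c, -0.51 to 0.30 for Hist1h3g, -0.17 to 0.45 for Hist1h4j, -0.047 to 0.038 for Slbp and -0.28 to 0.089 for Casp8ap2. The cause of these turns was not tested.

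Replicate numbers were not treated as pairs in the main fit. Deviations of same-numbered libraries correlated at 0.284, 0.419 and 0.060. cKO replicates 1 and 2 were each most like the WT library of the same number, and cKO replicate 3 was most like WT replicate 2. So few values cannot settle whether the numbers pair the samples. With a replicate block on libraries 1 to 3, edgeR called 13 features, 1 of them a clustered histone gene, with Hist1h2bg at 0.13, Hist1h3g at 0.0069 and Slbp at -0.048. At this depth, 30 of the 56 genes did not pass the edgeR filter on low counts.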
